A study of Salmo salar with 18 samples.

Results

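The livers compared here came from 6 Atlantic salmon (Salmo salar) that were warmed under moderate hypoxia and from 6 control salmon, 12 of the 18 fish profiled in the series. They were chosen by the treatment in the sample titles. Warm and hypoxic (WH) fish were brought to 70% air saturation over 1 week, held there for 2 weeks, and then warmed from 12 to 20 °C at 1 °C per week, still at 70% air saturation. Control (CT) fish stayed at 12 °C and 100% air saturation throughout. The other 6 fish, warmed at 100% air saturation (WN), entered the fit only through the shared estimate of the spread and are compared in 1 place below. All fish were post-smolts of Saint John River origin in seawater on the same light cycle. They were fed to satiation and fasted before the liver was taken, WH fish after 3 days at 20 °C. According to the study, WH fish ate less and grew less than CT and WN fish, and the part of this in the differences was not tested. No genotype was changed and no drug was given. Each treatment had 2 tanks with 3 fish from each on the arrays, tanks 1 and 6 for WH and tanks 3 and 4 for CT. Temperature and oxygen were thus set for tanks, not for single fish, and because WH and CT differ in both, the share of each in a difference cannot be told apart.

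The liver carries out most of the intermediary metabolism of a fish and makes much of its plasma protein, including complement and clotting factors. Heat unfolds proteins, and cells answer it through heat shock factors, which raise the chaperones that hold and refold other proteins, while damaged proteins are tagged and broken down by the proteasome. Low oxygen is sensed by prolyl hydroxylases, which mark hypoxia-inducible factors for breakdown as long as oxygen is present.

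Each liver RNA was labelled with Cy5 and hybridized to a 44K salmonid oligonucleotide array together with a Cy3-labelled pool of RNA from all 18 fish. Every level below is therefore a log2 ratio of a fish to that pool, and every difference is WH minus CT on the log2 scale. Of 43689 probes, 23846 were above background on at least 14 of 18 arrays and were tested. The Cy5 signal of the median probe was 53.0 to 110.5 times background in WH fish (median 63.0), against 28.3 to 62.0 in CT fish (median 52.9). For the Cy3 pool on the same arrays it was 56.5 to 181 (median 89.0) in WH fish, against 18.0 to 150 (median 44.5) in CT fish, and the part of this in the differences was not tested. The number of arrays, not a read depth, limits the precision. A probe has a gene name here only if the study's readable annotation or its list of qPCR genes pairs the probe with one, which held for 1445 tested probes. That annotation lists probes that the study had picked for a change in WN fish against these same CT fish. The direction of named probes and of the gene lists built from them is therefore not independent evidence. Lower-case names are the study's qPCR genes and upper-case names are best matches from its annotation, so a name in capitals may stand for any of several salmon copies. Among the markers that define hepatocytes, 1 had a named probe, FABP1 (C039R070), a liver fatty acid carrier, which was above background in 6 of 6 WH and 6 of 6 CT fish and differed by 0.97 (SE 0.25, adjusted p = 0.0212). That call was lost with slide as a block (adjusted p = 0.0796), with tank means and with each array centred on its median. It was also lost without WH-4, CT-1, CT-4 or CT-6 (adjusted p up to 0.0557). No exocrine pancreas marker had a named probe.

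Of the 23846 probes tested, 1226 (5.14%) differed between WH and CT livers at an adjusted p under 0.05 (limma with Benjamini-Hochberg adjustment). The unit of this fit was the fish, so its SE and p-values measure the spread among fish and not among tanks. In WH livers 577 probes (2.42% of those tested) were higher and 649 (2.72%) lower. Probes with a name, most of which had been picked for a change, were called more often, 518 of 1445 (35.8%), with 284 (19.7%) higher and 234 (16.2%) lower. Called probes without a name leaned the other way, with 293 higher and 415 lower. The named probes, and with them the counts and medians of the lists, may thus lean towards rises. Since the gene lists below hold named probes alone, their counts are to be read against these shares and not against those of all probes. The share called was above 35.8% in 15 of the 26 pathway lists and below it in 11. The median size of the difference was 1.06 among these 1226 probes and 0.25 among all probes tested. Differences above 1 on the log2 scale, a doubling, were held by 324 of the higher probes and by 385 of the lower ones. Differences above 2 were held by 31 higher and 54 lower probes. All measured WH fish lay on the same side of the CT mean for 1208 of the 1226 probes. Among the 21001 probes with a value in all 12 fish, WH and CT values did not overlap at all for 867 (4.13%). These were 429 probes (2.04%) higher and 438 (2.09%) lower in WH fish.

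**Figure D1:**
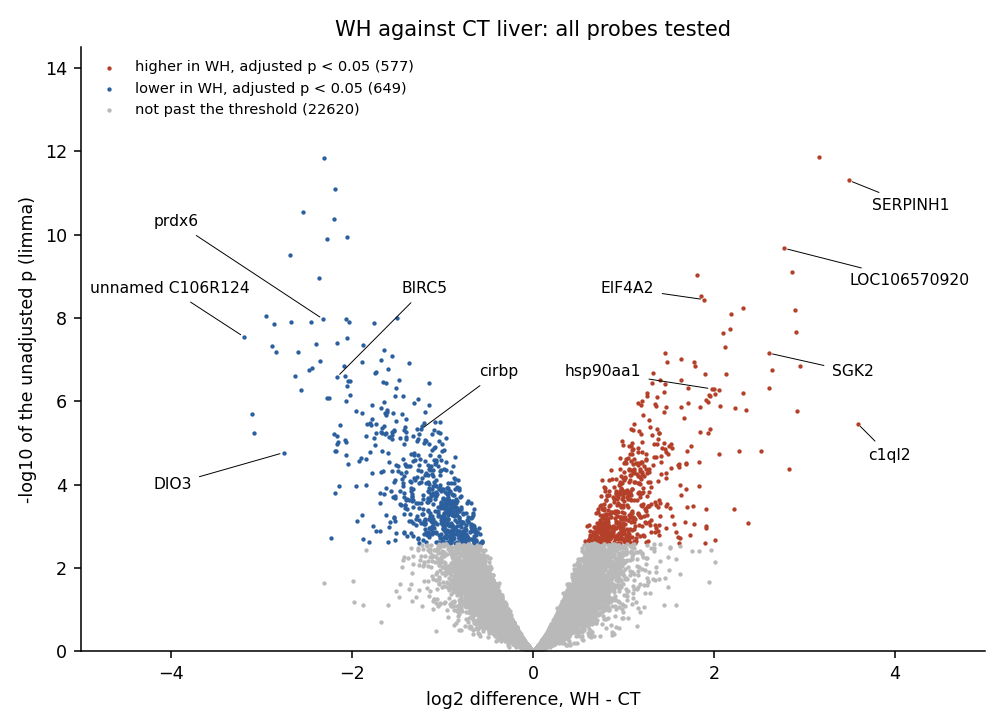
Each point is 1 of the 23846 probes tested; the x axis is the log2 difference WH minus CT and the y axis is -log10 of limma's unadjusted p. The 577 probes higher in WH livers (red) reach a difference of 3.59 and the 649 lower ones (blue) reach -3.20, with SERPINH1 and c1ql2 at the right edge and DIO3 and unnamed probes at the left.

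The 6 fish of each treatment were alike in these probes. Over the 577 higher probes, the median log2 ratio of a fish ran from 0.17 in WH-6 to 0.32 in WH-3, against -0.86 in CT-6 to -0.70 in CT-5. Over the 649 lower probes it ran from -0.69 in WH-3 to -0.45 in WH-4, against 0.40 in CT-3 to 0.62 in CT-6. Since these probes were chosen by this difference, the gap itself is only a description, and neither tank of a treatment stood apart from the other. The arrays lay on slides that each held up to 4 arrays, and 3 slides held both WH and CT fish. Within slide X525, 1200 of the 1210 called probes with a value differed in the same direction as over all fish. The same held for 1201 of 1209 on slide X526 and for 1174 of 1201 on slide X528. These probes were chosen by the difference over all fish, those of the slides included, so this agreement is only a description. With slide as a block 693 probes (2.91%) were called, and a fit on the tank means called 701 (2.94%). Centring each array on its median in place of loess called 497 (2.08%).

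The probe with the smallest adjusted p was one of SERPINH1, known as HSP47, a collagen-binding chaperone of the endoplasmic reticulum that heat shock factors switch on. Its 5 probes all rose and are shown first. Probe C205R085 lay at 0.35 to 1.07 (median 0.48) in WH fish, against -3.63 to -2.04 (median -2.90) in CT fish. Probe C009R155 lay at 0.17 to 0.80 (median 0.41) in WH fish, against -3.22 to -2.04 (median -2.82) in CT fish. The gap between the groups was wider than the whole spread within either of them. The differences were 3.49 (SE 0.26, adjusted p = 3.92e-08) and 3.16 (SE 0.22, adjusted p = 1.72e-08). The other 3 probes, C265R019, C236R132 and C044R036, differed by 2.95, 2.90 and 2.86, and none of the 5 overlapped between WH and CT fish. Of these probes 3 match 1 salmon gene, LOC106581278, C009R155 matches none, and C236R132, the probe of the qPCR gene serpinh1, matches a second copy, LOC106613072. That second copy was not well above background in the Cy5 channel of any CT fish, against 6 of 6 WH fish, so its level in CT livers is poorly known. Its Cy5 signal was roughly 6.17-fold higher in WH livers, taking the mean of the 6 WH arrays over a floor for the CT arrays. That floor was, on each CT array, the larger of the probe's own value and the lowest value of any detected spot. The spot's own detection threshold can lie higher, so this is no strict bound. The estimate rests on the Cy5 channel alone and is open to dye bias.

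The qPCR products of the chaperone genes show what the study's assays amplified, and they were not aligned to the array probes here. They are printed 5′ to 3′ from the study's primer table, with the primer-binding ends in capitals.
serpinh1: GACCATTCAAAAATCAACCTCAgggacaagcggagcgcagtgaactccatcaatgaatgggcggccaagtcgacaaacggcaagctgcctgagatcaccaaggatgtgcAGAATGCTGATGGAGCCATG
hsp90aa1: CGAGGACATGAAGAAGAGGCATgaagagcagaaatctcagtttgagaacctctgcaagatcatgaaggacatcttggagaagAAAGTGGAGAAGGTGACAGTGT
hsp90ab1: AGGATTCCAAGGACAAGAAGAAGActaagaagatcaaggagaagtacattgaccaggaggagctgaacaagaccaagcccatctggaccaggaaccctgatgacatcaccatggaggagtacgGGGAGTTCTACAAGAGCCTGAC

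In the cytosol, 12 of the 19 named probes of chaperones, cochaperones and heat shock factors rose (63.2%) and 0 fell, against 19.7% of all named probes that rose. Their median difference was 1.16, and all 19 were above 0. The inducible HSP90, hsp90aa1 (C182R027), had log2 ratios of -0.04 to 0.62 (median 0.39) in WH fish, against -2.50 to -1.02 (median -1.63) in CT fish, and the difference was 1.97 (SE 0.28, adjusted p = 0.000149). No WH fish reached down to the highest CT fish. The constitutive HSP90, hsp90ab1 (C021R073), lay at -0.47 to 0.68 (median 0.43) in WH fish, against -1.13 to -0.32 (median -0.92) in CT fish and rose by 1.16 (SE 0.22, adjusted p = 0.00245). There WH-1, the lowest of the 6 WH fish, lay below CT-4. A second HSP90AA1 probe, C251R099, rose by 1.47.

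The qPCR gene hsp70 is annotated as HSPA8, the heat shock cognate that folds proteins in unstressed cells too. Its probe C007R083 lay at -0.79 to 0.97 (median 0.30) in WH fish, against -2.77 to -0.46 (median -1.42) in CT fish, a difference of 1.62 (SE 0.32, adjusted p = 0.00295). WH-2 lay below CT-5, the highest CT fish, so the groups overlapped, while a second HSPA8 probe, C116R145, separated all 12 fish and rose by 1.41. DNAJA4, an HSP40 cochaperone that presents clients to HSP70, had the largest rise of the list. Its probe C120R137 lay at -0.42 to 1.58 (median 0.28) in WH fish, against -3.25 to -1.20 (median -1.47) in CT fish and rose by 2.36 (SE 0.37, adjusted p = 0.000329). The groups were apart, CT-1 and CT-6 were the lowest fish, and the Cy5 channel was above background in 6 WH fish against 4 CT fish. Without background correction DNAJA4 was not called (adjusted p = 0.0664). The 7 named chaperone probes that did not pass the threshold had differences of 0.38 to 1.04.

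**Figure D2:**
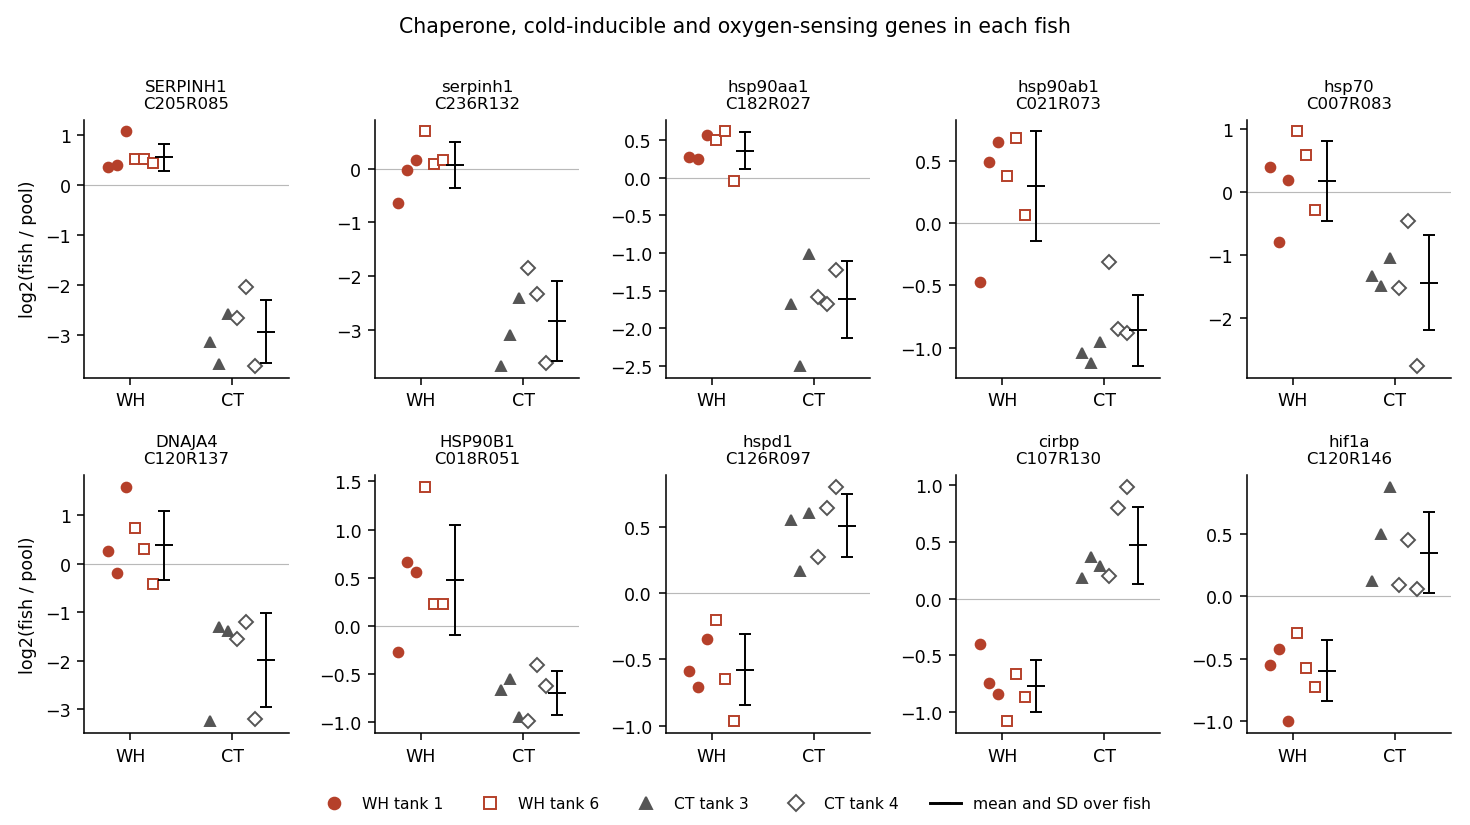
Log2 ratio of each fish to the pool (y axis) for 10 probes, WH fish left and CT fish right; symbols give the tank, and the bar is the mean with its SD over up to 6 fish. The mean of WH fish lies above that of CT fish for the chaperones in the cytosol and for SERPINH1, and below it for hspd1, cirbp and hif1a. Single WH and CT fish overlap for hsp90ab1 and hsp70.

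Fewer probes were called in the chaperone lists of the other compartments, and whether compartments differ was not tested. In the endoplasmic reticulum list 3 of 10 named probes rose and 0 fell, 30.0% called against 35.8% of all named probes, and the median difference of the 10 was -0.28. The list does not hold SERPINH1, also a chaperone of that compartment, and with its 5 probes 8 of 15 rose. The 3 of the list were HSP90B1 (C018R051), the HSP90 of that compartment, CRELD2 (C060R138), which is induced when its proteins misfold, and OS9 (C184R096), a lectin that passes misfolded glycoproteins on for breakdown. HSP90B1 lay at -0.26 to 1.45 (median 0.40) in WH fish, against -0.99 to -0.40 (median -0.64) in CT fish, with no overlap, and rose by 1.17 (SE 0.24, adjusted p = 0.0054). CRELD2 and OS9 rose by 1.11 and 0.98, and OS9 overlapped because WH-5, at -1.17, lay among the CT fish. OS9 was not called with slide as a block (adjusted p = 0.0907) or without any 1 fish other than WH-5, CT-2 or CT-3 (adjusted p up to 0.101).

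Of 8 named probes of mitochondrial chaperones and proteases, 1 rose and 1 fell, 25% called against 35.8% of all named probes. The mitochondrial HSP60, hspd1 (C126R097), had log2 ratios of -0.97 to -0.21 (median -0.62) in WH fish, against 0.17 to 0.80 (median 0.58) in CT fish and fell by 1.08 (SE 0.19, adjusted p = 0.00133), with no overlap. A second HSPD1 probe, C203R077, differed by -0.54 and did not pass (adjusted p = 0.231). CLPX (C202R081), the unfolding subunit of a matrix protease, rose by 0.99 (SE 0.25, adjusted p = 0.0194). Neither was called when arrays were centred on their medians, where the adjusted p was 0.063 for hspd1 and 0.0953 for CLPX. CLPX was also not called without WH-3, CT-1 or CT-6 (adjusted p up to 0.0552). With slide as a block and with tank means 0 probes of the list rose, so CLPX was not called there either.

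The cold-inducible RNA-binding protein cirbp, which is known for rising in the cold and in low oxygen in mammalian cells, was lower in WH livers. Its qPCR probe C107R130 lay at -1.08 to -0.40 (median -0.79) in WH fish, against 0.18 to 0.98 (median 0.33) in CT fish. All 6 WH fish lay below all 6 CT fish, by -1.24 on average (SE 0.21, adjusted p = 0.000709). A second probe, C255R069, matched to LOC106569552, differed by -0.67 and did not pass the threshold (adjusted p = 0.11). The 2 primers of the qPCR assay for cirbp are given, since no RefSeq gene was matched to probe C107R130.
cirbp forward primer: TTGAGTACACAGCGGTGAATT
cirbp reverse primer: ACCAATCTGATGCTATGACGAGA

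Among 7 named probes of oxygen sensing and hypoxia-inducible genes, 2 fell and 1 rose, with a median difference of -0.56. The called share was 42.9%, against 35.8% of all named probes. The subunit hif1a (C120R146), whose protein is stabilized when oxygen is low, had log2 ratios of -1.0 to -0.29 (median -0.56) in WH fish, against 0.06 to 0.88 (median 0.29) in CT fish. WH and CT fish did not overlap, and hif1a fell by 0.95 (SE 0.20, adjusted p = 0.00536). The adjusted p was 0.0503 with median centring and 0.228 with spot means in place of spot medians. The prolyl hydroxylase egln2 (C079R030) lay at -1.17 to 0.23 (median -0.26) in WH fish, against 0.34 to 1.18 (median 0.45) in CT fish, a difference of -1.01 (SE 0.29, adjusted p = 0.0474). This call sat near the threshold and was lost with slide as a block (adjusted p = 0.278), with tank means (adjusted p = 0.152) and without any 1 fish other than WH-1 or WH-3 (adjusted p up to 0.116). The probe that rose was C146R081 of GAPDH, a glycolytic enzyme, at -0.34 to 1.64 (median -0.17) in WH fish, against -1.96 to -1.08 (median -1.66) in CT fish, a difference of 1.70 (SE 0.31, adjusted p = 0.00157). WH-1 was the highest fish there, and none of the WH fish overlapped with CT fish.

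In the glycolysis and gluconeogenesis list, 2 of 10 probes rose and 0 fell, with a median of -0.26. The called share, 20%, was below the 35.8% of all named probes. Besides GAPDH, the second was pdk3 (C107R097), a kinase that shuts off the entry of pyruvate into the citrate cycle, which lay at -0.53 to 0.92 (median 0.18) in WH fish, against -1.43 to -0.32 (median -0.88) in CT fish and rose by 1.05 (SE 0.27, adjusted p = 0.0214). It was not called with slide as a block (adjusted p = 0.151) or without WH-3, CT-1 or CT-4 (adjusted p up to 0.0591). The glucose-phosphorylating enzyme gck (C035R008) had widely spread values, -1.95 to 0.74 (median -0.90) in WH fish, against -1.82 to 2.59 (median -0.75) in CT fish, and its difference of -0.71 was smaller than that spread (adjusted p = 0.605). CT-4 and CT-5 lay above all WH fish, and the other 4 CT fish lay within the range of WH fish.

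Most probes of mitochondrial energy metabolism had differences below 0, and a part of them fell. In the respiratory chain and ATP synthase list 8 of 18 probes fell and 2 rose, 55.6% called against 35.8% of all named probes. In the citrate cycle list 4 of 13 fell and 1 rose, and in the fatty acid oxidation list 4 of 10 fell and 0 rose, shares of 38.5% and 40.0% that are near that of all named probes. The median differences of the 3 lists were -0.60, -0.63 and -0.69. Fewer fell with slide as a block (4, 1 and 1), with tank means (3, 0 and 0) and with median centring (2, 0 and 0).

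The largest fall of these lists was that of ucp2 (C013R092), an uncoupling protein of the inner mitochondrial membrane. It lay at -0.98 to -0.23 (median -0.46) in WH fish, against 0.02 to 1.54 (median 1.03) in CT fish, a difference of -1.41 (SE 0.27, adjusted p = 0.00277), with no overlap between the groups. COX7A2L (C124R089), which takes part in joining respiratory complexes, fell by 1.24 (SE 0.31, adjusted p = 0.0239). NDUFB1 (C038R141), an accessory subunit of complex I, fell by 1.21 (SE 0.28, adjusted p = 0.00971). Neither COX7A2L nor NDUFB1 was called with slide as a block, at an adjusted p of 0.121 and 0.08. COX7A2L, with values in 5 fish of each group, was also not called without WH-3, WH-5, CT-2 or CT-5 (adjusted p up to 0.0658).

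Against this direction stood SDHA, the flavoprotein of complex II, which belongs to the citrate cycle as well. Its probe C063R041 lay at 0.01 to 0.31 (median 0.13) in WH fish, against -1.24 to -0.74 (median -1.03) in CT fish, a tight and separate pair of groups, and rose by 1.16 (SE 0.18, adjusted p = 0.000247). SDHC (C154R118), a membrane anchor of the same complex, lay at -0.60 to -0.22 (median -0.41) in WH fish, against -0.18 to 0.83 (median 0.60) in CT fish and fell by 0.91 (SE 0.19, adjusted p = 0.0054). A second SDHC probe, C152R105, differed by -0.40 and did not pass the threshold. The assembly factor of complex I NDUFAF4 (C059R092) rose by 1.02 (SE 0.22, adjusted p = 0.00736). The qPCR genes ndufa1 (C255R015) and ndufa4 (C097R143), both named for complex I subunits, differed by 0.83 and 0.59 with adjusted p of 0.0753 and 0.584. For ndufa4 the values of WH fish ran from -2.54 in WH-2 to 1.06 in WH-1, wider than the range of CT fish.

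In the citrate cycle, SUCLG1 (C096R068), a subunit of succinyl-CoA ligase, and IDH2 (C108R018), the mitochondrial isocitrate dehydrogenase, fell by 0.96 and 0.90. In fatty acid oxidation, HADHA (C260R063), the trifunctional protein that shortens long chains, fell by 0.82 (SE 0.18, adjusted p = 0.00656) without overlap. The subunits of the electron transfer flavoprotein, ETFB (C081R111) and ETFA (C037R170), fell by 0.82 and 0.78, and DECR1 (C048R073), which handles unsaturated chains, fell by 0.68. All 10 probes of that list lay below 0, and with tank means 0 of them passed the threshold, HADHA included. SUCLG1 was not called without CT-4 (adjusted p up to 0.0547), IDH2 without WH-2, WH-5, WH-6, CT-1, CT-2 or CT-6 (adjusted p up to 0.0764), ETFB without any 1 fish other than WH-4, WH-6, CT-2 or CT-5 (adjusted p up to 0.0969), ETFA without any 1 fish other than WH-2, WH-4, CT-2 or CT-3 (adjusted p up to 0.0949) and DECR1 without WH-3 or CT-4 (adjusted p up to 0.0564). In the list of fatty acid and sterol synthesis, 1 of 8 probes rose and 1 fell, 25% called against 35.8% of all named probes. PLIN2 (C049R002), a coat protein of lipid droplets, fell by 1.34 (SE 0.29, adjusted p = 0.0082), with values in 4 of 6 CT fish. INSIG1 (C054R074), which holds back the activation of sterol synthesis, rose by 1.36 (SE 0.36, adjusted p = 0.0286), and was not called with slide as a block (adjusted p = 0.0881) or without any 1 fish other than WH-1, WH-4, WH-6, CT-2 or CT-4 (adjusted p up to 0.0765).

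The proteasome list was the longest. All 69 probes, of 25 gene symbols, lay below 0, from -1.15 to -0.17 with a median of -0.55, and 18 of the 69 fell while 0 rose. That share, 26.1%, was below the 35.8% of named probes called in either direction and above the 16.2% that fell. The mean over the 69 probes was -0.37 to 0.04 in WH fish (median -0.25), against 0.03 to 0.53 in CT fish (median 0.38), so that 1 WH fish reached just into the CT range. The largest falls were those of PSMD3 (C174R155) and PSMD11 (C009R066) of the regulatory particle, PSME2 (C198R158) of an activator cap, and PSMA6 (C088R123), an outer ring subunit of the core. PSMD3 lay at -0.97 to -0.18 (median -0.62) in WH fish, against -0.02 to 1.19 (median 0.59) in CT fish and fell by 1.15 (SE 0.24, adjusted p = 0.00558). PSME2 fell by 1.08, PSMA6 by 0.99 and PSMD11 by 0.89, each without overlap between the groups. PSMA6 had 10 tested probes, matched to 3 salmon genes, and 7 of them fell. Their differences ran from -0.99 to -0.46. The number of called proteasome probes fell to 7 with slide as a block, to 3 with tank means and to 1 with median centring.

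**Figure D3:**
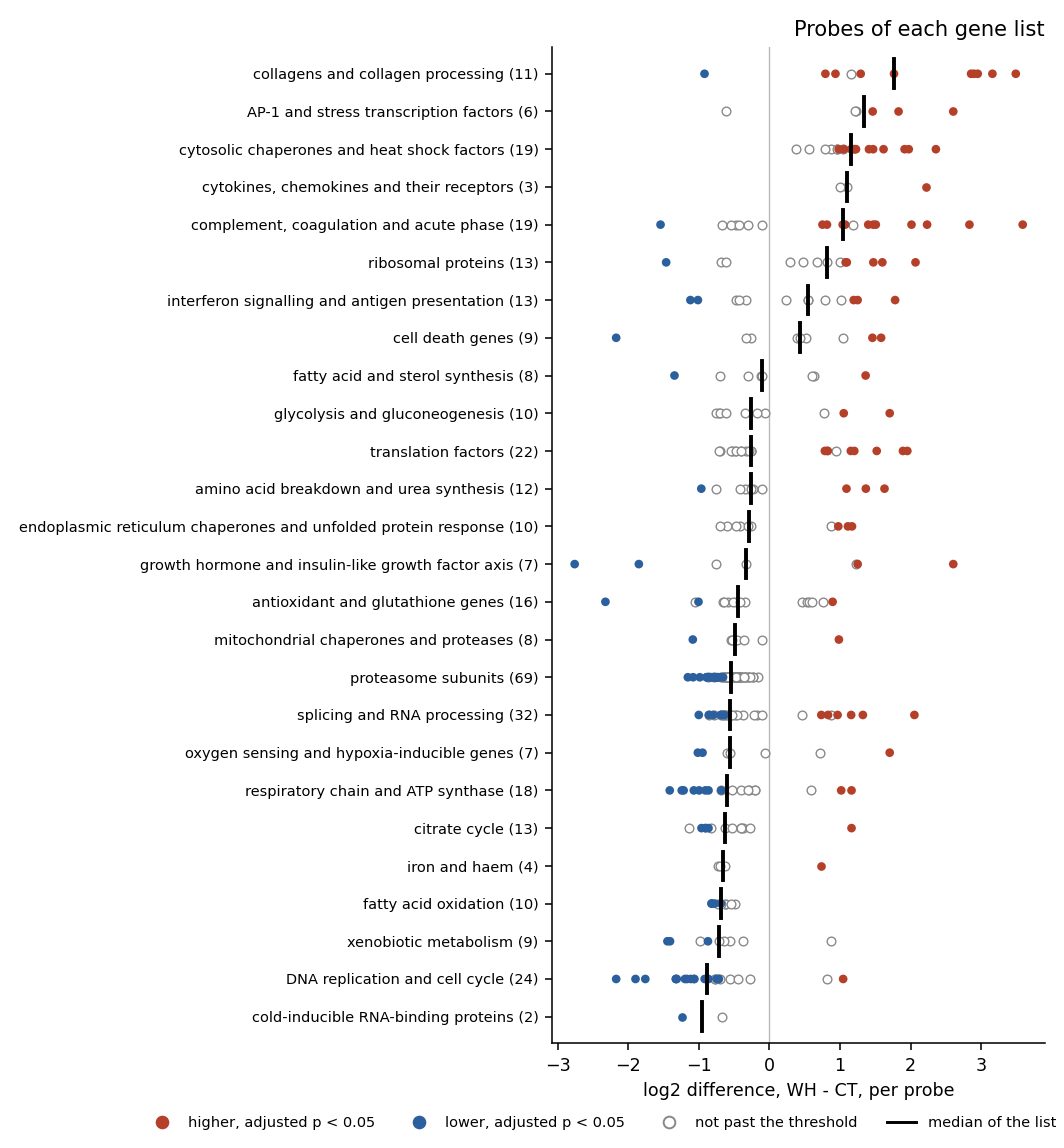
Each point is a named probe of a gene list (y axis, with the number of probes), placed at its log2 difference WH minus CT (x axis); filled points passed the threshold and the black bar is the median of the list. Medians run from 1.77 for collagens and collagen processing, which holds SERPINH1, to -0.96 for the 2 cirbp probes. The probes were picked by the study for a change on arrays that share the CT fish.

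Most named probes of DNA replication and cell division fell. Of 24 probes 16 fell, 1 rose and 7 did not pass, with a median of -0.89, and the share called was 70.8% against 35.8% of all named probes. The 24 probes stand for 11 gene symbols, 7 of them with a called probe. DUT alone had 7 probes, all of which fell, so the share of probes overstates the number of genes behind it. BIRC5 (C241R160), survivin, which works at the centromere of dividing cells, had log2 ratios of -2.68 to -0.79 (median -1.73) in WH fish, against 0.27 to 0.62 (median 0.35) in CT fish. The CT fish lay within a narrow band, and all WH fish lay below it, by -2.17 on average (SE 0.30, adjusted p = 9.56e-05). Without background correction BIRC5 was not called (adjusted p = 0.142). KIF2C (C187R082), a kinesin that frees wrongly attached chromosomes, lay at -2.12 to -0.22 (median -1.35) in WH fish, against 0.17 to 1.34 (median 0.81) in CT fish and fell by 2.08 (SE 0.28, adjusted p = 9.26e-05). PBK (C166R168), a mitotic kinase, fell by 1.76 (SE 0.30, adjusted p = 0.000965), and it was above background in 3 of 6 WH fish against 5 of 6 CT fish.

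PTTG1 (C210R035), securin, which guards the cohesion of sister chromatids, fell by 1.41 (SE 0.28, adjusted p = 0.00345), and with slide as a block its adjusted p was 0.0732. The tubulin TUBA1C (C102R081) fell by 1.44 (SE 0.27, adjusted p = 0.00218), and 2 further probes of that symbol fell by 0.92 and 0.86. STMN1, stathmin, which loosens microtubules, was named on 3 probes of 3 salmon genes. C001R139 fell by 1.90 (SE 0.29, adjusted p = 0.000366) and C181R051 by 1.32 (SE 0.23, adjusted p = 0.000872), while C169R101 rose by 1.05 (SE 0.27, adjusted p = 0.0215). For C169R101, CT-2 lay inside the range of WH fish, and the call was lost without WH-2, WH-4, WH-6, CT-1 or CT-4 (adjusted p up to 0.0617). In the list 6 probes fell with slide as a block, 10 with tank means and 6 with median centring.

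Some probes of protein synthesis rose. Among ribosomal protein probes 5 of 13 rose, and 46.2% were called in either direction against 35.8% of all named probes. The median over the 13 was 0.82. The 1 that fell was RPS6KL1 (C175R028), named for a kinase-like protein and not for a subunit of the ribosome. RPS2 (C084R113), of the small subunit, lay at -0.97 to 0.96 (median 0.44) in WH fish, against -2.72 to -1.04 (median -1.74) in CT fish, a difference of 2.07 (SE 0.32, adjusted p = 0.00028). RPL32 (C131R020) and RPS18 (C200R072) rose by 1.60 and 1.47. RPL32 overlapped through WH-2, and the groups were apart for RPS18 and RPS2. RPS6KL1 lay at -2.12 to 0.22 (median -0.60) in WH fish, against 0.30 to 1.58 (median 0.69) in CT fish and fell by 1.46 (SE 0.29, adjusted p = 0.00359).

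Among translation factors 8 of 22 probes rose and 0 fell, 36.4% against 35.8% of all named probes called, although the median of the list was -0.26. EIF4A2, an RNA helicase that opens messenger RNA for the ribosome, was named on probes far apart between the groups. C096R117 lay at 0.06 to 0.72 (median 0.26) in WH fish, against -1.93 to -1.07 (median -1.68) in CT fish and rose by 1.89 (SE 0.20, adjusted p = 5.72e-06). C092R059 rose by 1.95 (SE 0.29, adjusted p = 0.000191). The poly(A)-binding proteins PABPC4 (C137R142) and PABPC1 (C250R114) rose by 1.52 and 1.20.

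In the splicing list 6 of 32 probes rose and 7 fell, a called share of 40.6% that is near the 35.8% of all named probes. SRPK1 (C150R089), a kinase that loads splicing factors into the nucleus, lay at -0.44 to 1.19 (median 0.52) in WH fish, against -2.21 to -1.04 (median -1.47) in CT fish and rose by 2.05 (SE 0.30, adjusted p = 0.000156). SRSF6 (C114R035), one of the serine- and arginine-rich splicing factors that SRPK1 phosphorylates, lay at 0.33 to 0.73 (median 0.40) in WH fish, against -1.16 to -0.37 (median -0.90) in CT fish and rose by 1.32 (SE 0.18, adjusted p = 8.36e-05). Neither overlapped. SNRPD3 (C097R030), a core protein of spliceosomal particles, rose by 1.16, and TAF15 (C035R110), an RNA-binding protein, fell by 1.00 but was not called without WH-2, WH-3, WH-5, CT-4, CT-5 or CT-6 (adjusted p up to 0.0759). Slide as a block left 5 probes that rose and 0 that fell, and with median centring 2 rose and 0 fell.

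In the list of complement, coagulation and acute phase proteins, 11 of 19 probes rose and 1 fell, with a median of 1.04 and 63.2% called against 35.8% of all named probes. Those that rose were 5 probes of CLU, 2 of APOD, 2 of TFPI, c1ql2 and 1 of APOH, a lipid-binding plasma protein, while the 5 probes of C3, C5 and A2M, the abundant plasma factors of the list, lay at -0.54 to -0.10 and did not pass. The largest difference of any named probe was that of c1ql2 (C071R068), a protein with the globular domain of complement C1q. It lay at -0.52 to 2.50 (median 0.08) in WH fish, against -4.38 to -1.42 (median -3.45) in CT fish, with values in 5 fish of each group, and rose by 3.59 (SE 0.57, adjusted p = 0.000576). WH-5 was far above the other WH fish, and the groups did not overlap. The Cy5 channel was above background in 5 WH fish, against 3 CT fish.

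CLU, clusterin, a secreted chaperone that binds unfolded proteins and the terminal complement complex, rose on all 5 of its tested probes, by 1.07 to 2.23. C082R076 lay at 0.14 to 0.86 (median 0.56) in WH fish, against -2.54 to -0.21 (median -2.09) in CT fish and rose by 2.23 (SE 0.34, adjusted p = 0.000303). All 6 WH fish lay above all 6 CT fish on each of the 5 probes. TFPI, an inhibitor of the start of clotting, was called in both directions. C039R146 and C082R108, matched to 1 salmon gene, rose by 1.04 and 0.82, and C202R132, matched to another, fell by 1.54 (SE 0.39, adjusted p = 0.0203). None of these 3 was called with slide as a block. C039R146 was also not called without WH-2, WH-3, WH-6, CT-4 or CT-6 (adjusted p up to 0.0768), C082R108 without any 1 fish other than WH-4 or CT-1 (adjusted p up to 0.118) and C202R132 without WH-2, WH-5, CT-1 or CT-5 (adjusted p up to 0.0556). The central complement component c3 (C097R144) differed by -0.30 and a second probe, C138R093, by -0.54, with adjusted p of 0.694 and 0.241.

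The lipocalin apod (C038R071), a carrier of small lipids that is known to rise in stressed tissue, showed the widest split between tanks. It lay at -2.16 to 1.26 (median 0.31) in WH fish, against -4.25 to -2.05 (median -2.87) in CT fish, a difference of 2.83 (SE 0.56, adjusted p = 0.0032). The 3 fish of WH tank 1 averaged 1.01 and those of tank 6 -1.31, against -3.54 in CT tank 3 and -2.42 in CT tank 4. WH-4, at -2.16, lay below the highest CT fish. Another APOD probe, C056R136, matched to other salmon genes, rose by 0.75 without such a split, with both WH tanks at -0.04, although it was not called with slide as a block (adjusted p = 0.122) or without WH-3, WH-5, CT-2 or CT-3 (adjusted p up to 0.0765).

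The means of the 2 WH tanks also lay apart for il8, and differences between tanks were not tested. The chemokine il8 (C183R028), which draws neutrophils, lay at -0.33 to 2.84 (median 0.96) in WH fish, against -2.95 to 0.72 (median -1.03) in CT fish and rose by 2.22 (SE 0.53, adjusted p = 0.0144). Its 3 highest fish were the 3 of WH tank 1, the tank means were 1.76 and 0.14 in WH tanks 1 and 6 against -0.91 and -1.64 in CT tanks 3 and 4, and CT-2 lay among the WH fish. The cathelicidin camp-a (C234R046), an antimicrobial peptide of granulocytes, lay at -0.52 to 2.26 (median 0.28) in WH fish, against -2.84 to 1.15 (median -1.67) in CT fish and rose by 1.90 (SE 0.55, adjusted p = 0.0487). WH-1 and WH-3 stood at 2.03 and 2.26, while CT-4, at 1.15, was higher than the other 4 WH fish. With slide as a block the adjusted p was 0.0842 for il8 and 0.0693 for camp-a. The call of camp-a was also lost without any 1 fish other than WH-5, CT-2 or CT-4 (adjusted p up to 0.124).

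Most named probes of the granulocyte marker list were higher in the same livers. Of the 5 named probes of that list 4 rose and 0 fell, 80% called against 35.8% of all named probes. The median of the 5 was 1.39. The mean over the 5 was -0.36 to 0.75 in WH fish (median 0.05), against -1.81 to -0.97 in CT fish (median -1.30). Those that rose were nckap1l (C020R060), which shapes the actin skeleton of blood cells, 2 probes of MMP13, a collagenase, and epx (C152R082), a granule peroxidase that the annotation names MPO. nckap1l lay at 0.51 to 1.12 (median 0.78) in WH fish, against -1.55 to -0.30 (median -0.86) in CT fish, rose by 1.71 (SE 0.24, adjusted p = 0.000147), and was within a narrow band in the 6 WH fish. It is a gene of blood cells at large, and its level rests on 1 probe with no second one to compare. Without it 3 of 4 probes of the list rose, 2 of them of MMP13, which also counts in the list of collagens and collagen processing. epx lay at -0.43 to 1.31 (median 0.28) in WH fish, against -1.77 to -0.15 (median -1.11) in CT fish, overlapped, and rose by 1.39 (SE 0.37, adjusted p = 0.0262). The MMP13 probes C245R152 and C018R115 rose by 1.77 and 1.29, and mmp9 (C081R049), a gelatinase of neutrophils, differed by 1.15 (adjusted p = 0.0853). Of the 5, 2 rose with slide as a block. epx was also not called without WH-2, WH-3, WH-6, CT-1, CT-4 or CT-6 (adjusted p up to 0.0699) and MMP13 C018R115 without WH-2, WH-3, CT-1, CT-3 or CT-6 (adjusted p up to 0.0714).

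Markers of other blood cells did not rise together. Of 2 macrophage probes and 5 lymphocyte probes 0 passed in either direction, at medians of 0.39 and -0.61, and of 3 erythroid probes GYPC (C188R134), a red cell membrane protein, rose by 1.32 while the other 2 lay at -0.50 and -0.66. In RNA from whole liver, more cells of a type and more RNA per cell cannot be told apart, and the part of granulocyte RNA in the immune differences was not tested. The endothelial and stellate list held 1 probe, COL1A1 (C106R047), a chain of fibrillar collagen, which fell by 0.92 (SE 0.24, adjusted p = 0.0266). It was not called with slide as a block, with tank means or with median centring. It was also not called without WH-2, WH-3, WH-4, WH-5, CT-4 or CT-6 (adjusted p up to 0.0675).

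**Figure D4:**
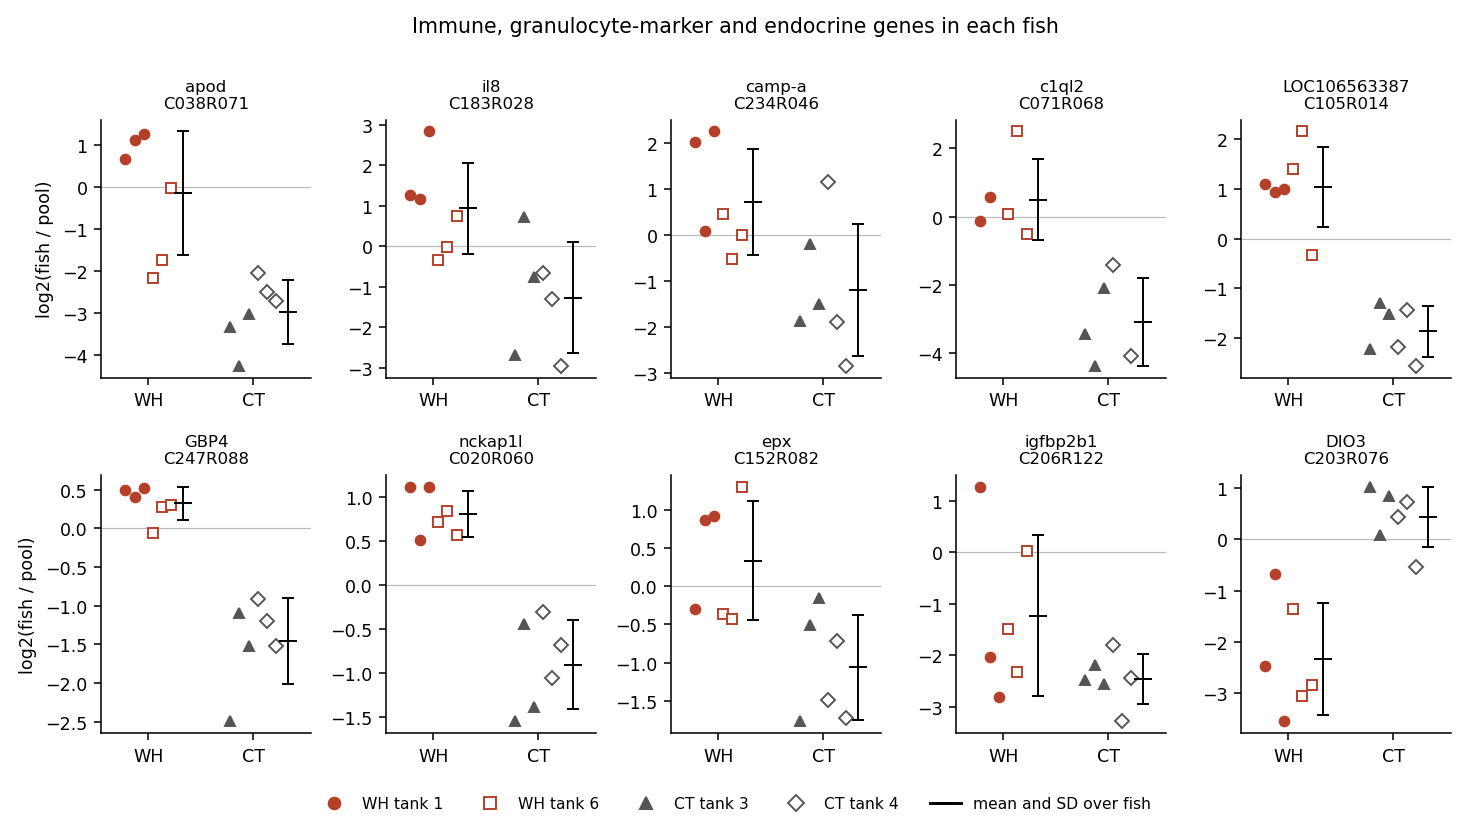
Log2 ratio of each fish to the pool (y axis) for 10 probes, WH fish left and CT fish right; symbols give the tank, and the bar is the mean with its SD over up to 6 fish. For apod and il8 the WH fish of tank 1 lie above those of tank 6, whereas GBP4 and nckap1l are alike in both WH tanks, and for igfbp2b1 WH-1 and WH-6 stand above the others.

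Of 13 probes of interferon signalling and antigen presentation, 3 rose and 2 fell, a called share of 38.5% that is near the 35.8% of all named probes. GBP4 (C247R088), an interferon-induced guanylate-binding protein, lay at -0.06 to 0.52 (median 0.36) in WH fish, against -2.49 to -0.92 (median -1.36) in CT fish, with no overlap, and rose by 1.78 (SE 0.23, adjusted p = 5.64e-05). The transcription factor irf2 (C064R147) lay at -0.15 to 0.37 (median 0.21) in WH fish, against -1.50 to -0.73 (median -0.99) in CT fish and rose by 1.19 (SE 0.20, adjusted p = 0.000815). The cytokine receptor kinase jak2 (C127R086) rose by 1.25 (SE 0.30, adjusted p = 0.0156), but was not called with slide as a block (adjusted p = 0.147) or without CT-4 (adjusted p up to 0.0533). The 2 that fell were both probes of ctsh, cathepsin H, a lysosomal protease, C031R123 by 1.12 and C194R156 by 1.01, without overlap. For mhcii (C098R076), tapbp (C027R139) and tnfrsf6b (C056R147), which serve antigen display and the blocking of death ligands, the differences were 1.01, 0.78 and 1.05, with adjusted p of 0.0662, 0.126 and 0.113.

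Among 9 cell death probes 2 rose and 1 fell, BIRC5 being the one that fell. The called share, 33.3%, was near the 35.8% of all named probes. The initiator protease casp8 (C214R054), which death receptors activate, lay at -0.13 to 0.78 (median 0.33) in WH fish, against -1.59 to -0.68 (median -1.08) in CT fish. The groups were apart, and casp8 rose by 1.46 (SE 0.21, adjusted p = 0.000122). PARP1, a sensor of DNA breaks, rose on C250R051 by 1.58 (SE 0.43, adjusted p = 0.0335), while its other probes, C083R168 and C018R132, differed by 0.43 and 0.39 and did not pass. C250R051 has no RefSeq gene matched to it, and its call was lost with slide as a block (adjusted p = 0.238) and without any 1 fish other than WH-5, CT-2, CT-3, CT-5 or CT-6 (adjusted p up to 0.0904).

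Of 6 probes of stress-responsive transcription factors and kinases, 3 rose and 0 fell, 50% called against 35.8% of all named probes. SGK2 (C168R030), a kinase of the serum- and glucocorticoid-regulated family, lay at -0.44 to 1.13 (median 0.55) in WH fish, against -2.67 to -1.78 (median -2.15) in CT fish, wide apart, and rose by 2.60 (SE 0.33, adjusted p = 3.98e-05). The AP-1 member jund (C015R051) lay at -0.46 to 0.91 (median 0.20) in WH fish, against -2.63 to -0.21 (median -1.65) in CT fish and rose by 1.83 (SE 0.35, adjusted p = 0.00245). CT-5, at -0.21, lay above 2 WH fish. ATF3 (C114R051), an early factor of the stress response, rose by 1.46 (SE 0.34, adjusted p = 0.0127), and with slide as a block its adjusted p was 0.0548.

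Redox genes did not move one way. Of 16 antioxidant and glutathione probes 2 fell and 1 rose, 18.8% against 35.8% of all named probes called. The peroxidase prdx6 (C212R138), which reduces peroxides of phospholipids, showed the largest fall. It lay at -2.18 to -0.69 (median -1.23) in WH fish, against 0.35 to 1.72 (median 0.92) in CT fish, and WH fish were lower by -2.32 on average (SE 0.26, adjusted p = 1.16e-05). WH and CT fish did not overlap. The primers of the qPCR assay for prdx6 are given, since no RefSeq gene was matched to the probe.
prdx6 forward primer: GCGTTCATGTTGCATTTGTTGT
prdx6 reverse primer: CGCAATTAGAAGTAAGGCAGCA

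PRDX1, a cytosolic peroxidase of the same family, fell on C142R084 by 1.00 (SE 0.18, adjusted p = 0.00121), and its second probe C026R093 differed by -1.05 (adjusted p = 0.0702). NFE2L2 (C247R146), the transcription factor NRF2 that switches on antioxidant genes, lay at -0.16 to 0.48 (median 0.05) in WH fish, against -1.12 to -0.48 (median -0.80) in CT fish and rose by 0.90 (SE 0.19, adjusted p = 0.00634). NFE2L2 was not called with median centring or with tank means, where 0 probes of the list rose. With median centring 1 probe of the list fell. Catalase, cat (C004R029), was an instance of small but separate groups. It lay at 0.08 to 0.24 (median 0.15) in WH fish, against -0.44 to -0.22 (median -0.31) in CT fish, with all WH fish above all CT fish, and yet its difference of 0.46 did not pass the threshold (adjusted p = 0.122). Thioredoxin, txn (C182R133), and gstt1 (C202R025), a glutathione transferase, differed by 0.76 and -0.51 and did not pass either.

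In xenobiotic metabolism 3 of 9 probes fell and 0 rose, a called share of 33.3% that is near the 35.8% of all named probes. The cytochrome cyp1a1 (C161R028), the standard readout of the aryl hydrocarbon receptor in fish liver, lay at -1.0 to 0.11 (median -0.45) in WH fish, against 0.69 to 1.28 (median 0.91) in CT fish and fell by 1.41 (SE 0.24, adjusted p = 0.001). ABCG2 (C045R156), an export pump, lay at -0.98 to -0.18 (median -0.77) in WH fish, against 0.27 to 1.28 (median 0.82) in CT fish and fell by 1.44 (SE 0.21, adjusted p = 0.000191). CYP3A4 (C094R094), a cytochrome of drug and steroid breakdown, fell by 0.87 (SE 0.18, adjusted p = 0.00545), and with slide as a block its adjusted p was 0.0597. None of the 3 overlapped between the groups.

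In amino acid and one-carbon metabolism 3 of 12 probes rose and 1 fell, a called share of 33.3% that is near the 35.8% of all named probes. MTHFD1, which interconverts the folate cofactors of one-carbon units, rose on C186R084 by 1.63 (SE 0.23, adjusted p = 0.000106) with values of -0.19 to 1.18 (median 0.41) in WH fish, against -1.57 to -0.71 (median -1.23) in CT fish. Its second probe, C062R014, differed by -0.11. ABAT, which breaks down the transmitter GABA, was also split, with C222R039 up by 1.37 (SE 0.20, adjusted p = 0.000202) and C170R069 at -0.76 (adjusted p = 0.0682). DMGDH (C062R027), of the choline and betaine route, rose by 1.09, and SHMT1 (C207R088), a serine hydroxymethyltransferase, fell by 0.96. SHMT1 was not called with slide as a block (adjusted p = 0.189) or without any 1 fish other than WH-1, WH-4, CT-3 or CT-6 (adjusted p up to 0.0885).

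Of the endocrine genes, DIO3 showed the largest fall of any named probe. DIO3 is the deiodinase that inactivates thyroid hormone. Its probe C203R076 lay at -3.55 to -0.68 (median -2.66) in WH fish, against -0.55 to 1.03 (median 0.58) in CT fish, without overlap, and fell by 2.76 (SE 0.51, adjusted p = 0.00169). Its second probe C224R136 lay at -2.41 to -0.23 (median -1.89) in WH fish, against -0.72 to 1.06 (median 0.52) in CT fish and fell by 1.85 (SE 0.39, adjusted p = 0.00596). WH-2 and WH-4 were the highest of the WH fish on both probes. Both probes match LOC106571601, which the RefSeq annotation used here classes as a transcribed pseudogene, so the level of the enzyme's own messenger may not be what they measured. The binding protein of insulin-like growth factors igfbp2b1 (C206R122) lay at -2.80 to 1.28 (median -1.77) in WH fish, against -3.28 to -1.80 (median -2.46) in CT fish. WH-1 and WH-6 stood at 1.28 and 0.02 and WH-4 at -1.50, above all CT fish, while the other 3 WH fish lay among them, and the difference of 1.23 did not pass (adjusted p = 0.246). The growth regulator rraga (C251R053), a GTPase that reports amino acids to mTOR, differed by -0.75 (adjusted p = 0.0587).

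Several of the strongest named differences fell into none of the lists. LOC106570920 (C239R081), described as a probable isoprenylcysteine methylesterase, lay at -0.38 to 0.76 (median 0.41) in WH fish, against -2.91 to -1.84 (median -2.35) in CT fish and rose by 2.77 (SE 0.25, adjusted p = 5.56e-07). LOC106563387 (C105R014), a long noncoding RNA in the RefSeq annotation, lay at -0.34 to 2.16 (median 1.04) in WH fish, against -2.56 to -1.30 (median -1.84) in CT fish and rose by 2.91 (SE 0.34, adjusted p = 1.76e-05). LOC106613965 (C025R135), named like a flavin-containing monooxygenase, lay at -0.84 to 1.26 (median 0.42) in WH fish, against -2.92 to -2.02 (median -2.22) in CT fish and rose by 2.61 (SE 0.37, adjusted p = 0.000147). None of the 3 overlapped between WH and CT fish.

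DHRS13, of the short-chain dehydrogenases, rose on all 3 of its probes, which match 1 salmon gene. C168R126 lay at -0.63 to 1.22 (median -0.04) in WH fish, against -3.45 to -1.48 (median -2.60) in CT fish and rose by 2.64 (SE 0.35, adjusted p = 7.57e-05), and C231R087 and C220R160 rose by 2.18 and 2.13. On each of the 3, WH-2 was the highest fish and WH-1, WH-3 and WH-6 were the lowest of the WH fish, all of them still above every CT fish. PHOSPHO1 (C076R016), a phosphatase of phosphocholine, fell by 1.57 (SE 0.34, adjusted p = 0.0074).

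The qPCR genes cul3 (C043R081), a scaffold of ubiquitin ligases, cldn3 (C031R082), of tight junctions, and calm (C219R132), calmodulin, differed by 0.54, 0.96 and -0.38 and did not pass, at adjusted p of 0.0879, 0.116 and 0.467.

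The strongest falls were on probes without a name. Of the 30 called and non-overlapping probes with the largest falls 3 had a name, against 30 of the 30 with the largest rises, and the annotation was read only in part. C106R124 lay at -3.20 to -0.87 (median -2.09) in WH fish, against -0.16 to 1.93 (median 1.17) in CT fish and fell by 3.20 (SE 0.38, adjusted p = 2.17e-05). C029R051 lay at -2.90 to -1.21 (median -2.16) in WH fish, against -0.15 to 3.08 (median 0.70) in CT fish and fell by 3.10 (SE 0.48, adjusted p = 0.000374), with the Cy5 channel above background in 2 of 6 WH fish. C236R084 lay at -3.35 to -0.77 (median -2.04) in WH fish, against 0.16 to 1.87 (median 1.04) in CT fish and fell by 3.09 (SE 0.52, adjusted p = 0.000802). WH-3 was the lowest fish on C106R124 and C236R084, and C236R084 was not called without background correction (adjusted p = 0.206). The unnamed probes with the largest rises, C028R151, C206R059 and C161R162, rose by 1.84, 1.74 and 1.69. C028R151 was above background in 5 WH fish against 1 CT fish.

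Probes with 1 symbol mostly moved together. Of 205 symbols with at least 2 tested probes, 55 had at least 2 called probes, and 3 of these, GPD1, STMN1 and TFPI, were called in both directions. In all 3 the higher and the lower probes match different salmon genes. GPD1, glycerol-3-phosphate dehydrogenase, had 1 of 4 probes called at 1.01 and 1 at -0.80.

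Compared with WN fish, which had been warmed alike at 100% air saturation, WH fish showed 0 called probes, and 1377 (5.77%) had an unadjusted p under 0.05 (limma). If no probe differed, a share of about 0.05 would be expected at that threshold. The smallest adjusted p was 0.411. A p that misses the threshold does not show that the 2 groups were alike. Most named probes had been picked by the study for a change in WN fish. The order given next is therefore only a description. Of the probes named above, WH fish differed most from WN fish on igfbp2b1, by -1.99 (SE 0.56, adjusted p = 0.781), on DIO3 (C203R076), by -1.63 (SE 0.51, adjusted p = 0.831), and on camp-a, by 1.59 (SE 0.58, adjusted p = 0.847). LOC106563387 differed by 1.36 (SE 0.34, adjusted p = 0.781), il8 by 1.39 (SE 0.53, adjusted p = 0.847), BIRC5 by -1.18 (SE 0.30, adjusted p = 0.781) and KIF2C by -1.12 (SE 0.28, adjusted p = 0.781). By contrast SERPINH1 (C009R155) differed by 0.08 (SE 0.22, adjusted p = 0.968), hspd1 by 0.00 (SE 0.19, adjusted p = 0.998) and casp8 by 0.01 (SE 0.21, adjusted p = 0.995).

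The main differences were also looked at within the slides that held both treatments, where each estimate rests on 2 or 3 of the fish in the fit. For SERPINH1 (C205R085) they were 2.50, 3.54 and 3.94 on slides X525, X526 and X528. For hsp90aa1 they were 2.05, 1.08 and 2.77 on slides X525, X526 and X528, and for prdx6 -2.99, -1.66 and -1.54 on slides X525, X526 and X528. For apod they were 1.99, 2.83 and 4.91 on slides X525, X526 and X528, the widest range among these genes. For egln2 they were -0.95, -1.12 and -0.32 on slides X525, X526 and X528, each below 0.

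**Figure D5:**
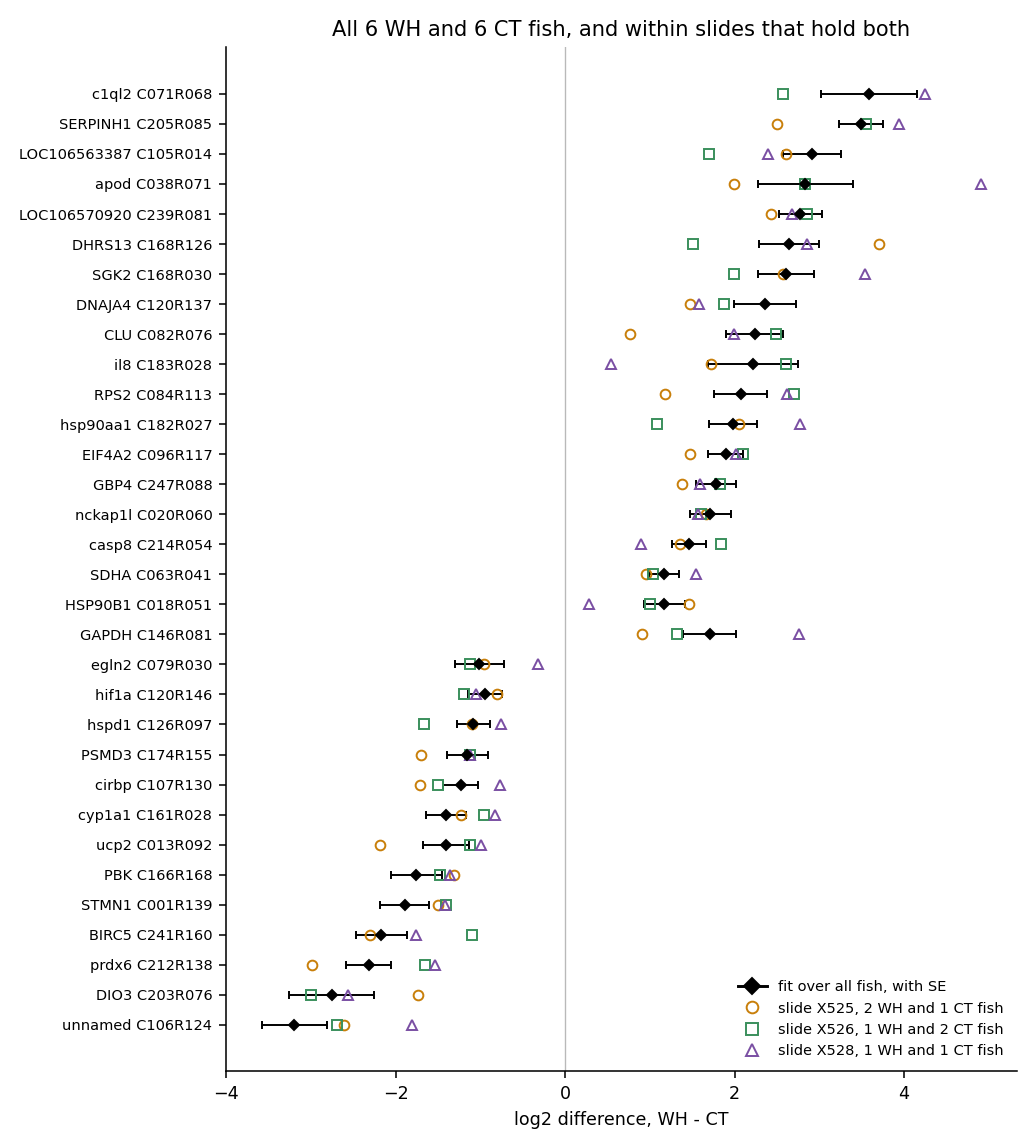
Log2 difference WH minus CT (x axis) for 32 probes: black diamonds give the fit over all fish with its SE, and open symbols the difference within each slide that held both treatments. Every slide estimate lies on the same side of 0 as the fit, which includes these fish, for these 32 probes. The range is 1.99 to 4.91 for apod and 0.54 to 2.60 for il8.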

How the data were processed

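Liver RNA of 18 fish was measured on 2-colour 44K arrays, of which the 6 WH and 6 CT arrays are compared here. The deposited scanner files hold raw intensities per spot, which the authors made from the scans with ImaGene, with the fish in Cy5, the pool of all fish in Cy3 and no dye swap. The authors' processed table holds log2 ratios after loess within arrays and removal of flagged or often absent probes, and it was used as an alternative. From the spot median intensities, background was corrected by normexp (offset 50) and ratios were normalized by loess within each array with limma 3.58.1 in R 4.3.3. Flagged spots were left out, as were 1531 control spots. Probes above background by 2 background SDs in either channel on at least 75% of all arrays were tested. A linear model over WH, WN and CT arrays was fitted with limma, and p-values were adjusted over all 23846 probes by Benjamini-Hochberg. SAM, the method of the study, was not run. A fit dropped the fish in which a probe was flagged, so that fewer than 6 values stand behind some means. The steps were tested on simulated data.

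Probes were named from the study's annotation (1493 entries read, 1082 of them matched by transcript accession to a gene symbol of the RefSeq annotation Ssal_v3.1) and from its 41 qPCR genes. Printed sequences are those of the study's qPCR primer table. The probes described are those of the qPCR genes, the 10 highest and 10 lowest named and the 3 highest and 3 lowest unnamed called probes without overlap, and in each gene list the 4 largest called changes with up to 2 against the list's direction, with further probes of the same genes. The result of 1 qPCR gene is not reported here. The members and the gene lists were chosen with earlier results of these data known. Alternatives were other background corrections, normalizations, detection filters, slide or replicate number as a block, tank as a random block or as means, and leaving out each fish.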

Additional observations from a re-analysis of the deposited data

Results flagged for a closer look

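Among the probes described, 16 of 270 groups of 4 to 6 fish held 1 fish that stood apart from the others, its gap to the next fish being larger than Dixon's critical share of the whole range. Chance flags about 1 in 20 groups. Each value below is a log2 ratio to the pool and differs from all other fish of its treatment.

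In WH fish, WH-3 stood above the others on SERPINH1 (C205R085, 1.07 against 0.52 in the next fish), which puts it further from CT fish, and on TFPI (C039R146, 0.52 against -0.08). WH-1 stood above the others on GAPDH (C146R081, 1.64 against 0.35) and below them on HSP90AA1 (C251R099, -0.83 against 0.35). WH-2 stood below the others on RPL32 (C131R020, -0.60 against 0.68), and WH-5 on OS9 (C184R096, -1.17 against 0.11), in both cases towards or into the range of CT fish.

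In CT fish, CT-2 stood above the others on FABP1 (C039R070, 0.0098 against -0.75) and on DMGDH (C062R027, 0.063 against -0.46). CT-3 stood below them on PARP1 (C018R132, -1.21 against -0.50) and on calm (C219R132, -0.53 against 0.15). CT-4 stood above them on hsp90ab1 (C021R073, -0.32 against -0.85) and below them on TFPI (C039R146, -2.61 against -1.06). CT-5 stood above them on c3 (C097R144, 1.11 against 0.0046, among 5 fish) and on MMP13 (C245R152, -1.37 against -2.20). CT-6 stood above them on RPS6KL1 (C175R028, 1.58 against 0.74) and below them on the unnamed probe C161R162 (-2.73 against -1.40).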

How the results depend on the processing

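The 1226 called probes became 497 with median centring (222 higher, 275 lower), 693 with slide as a block (335 higher, 358 lower) and 701 with tank means (330 higher, 371 lower). Of these, 482, 622 and 623 were among the 1226. The 518 called probes with a name became 204, 284 and 278 under the same settings. Median centring left 461 of the 867 probes without overlap, and the 148 called probes of the pathway lists became 65 with it and 85 with slide as a block. Leaving out 1 fish at a time gave 885 (without CT-6) to 1142 (without CT-2) called probes, 402 to 529 of them higher and 483 to 613 lower, and 390 to 482 with a name. Under the other settings 993 to 1601 probes were called. The 1601 were called with tank as a random block. Its estimated correlation within tanks was -0.05, and a negative value narrows the error of a difference between tanks. No setting turned the sign of any of the 1226 probes it tested. Of the 110 called probes described above, 63 were called under every setting that tested them, and 25 were not called without at least 1 of the fish. The uncalled MTHFD1 probe C062R014 ran from -0.28 (without WH-4) to 0.043 (without WH-1), changing sign in 3 of 12 cases.

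The replicate numbers did not pair the fish. Deviations of same-numbered WH and CT fish correlated at -0.11 to 0.03, and for 0 of 6 was the same number the best match. With the replicate number as a block 1034 probes were called, 477 higher and 557 lower, and 450 with a name. Deviations within a tank correlated no more (median -0.21) than between tanks of a treatment (median -0.20). The cause of these changes was not tested. With 6 fish a group, 2 tanks a treatment and no dye swap, differences near 1 on the log2 scale sat close to the threshold, and signal over background limits the probes that were dim in 1 treatment.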

Other observations

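Further gene lists held few named probes. Each called share below is to be read against the 35.8% of all named probes. In collagens and collagen processing 9 of 11 probes rose and 1 fell, 90.9% called against 35.8% of all named probes. Besides the 5 SERPINH1 probes and both MMP13 probes, those that rose were COL18A1 (C106R133, 0.79) and COL4A1 (C140R116, 0.94), basement membrane collagens. The 1 that fell was fibrillar COL1A1 (C106R047, -0.92). COL18A1 and COL4A1 were named after their values were seen, and whether the kinds of collagen differ was not tested. Slide as a block left 6 probes of the list that rose, median centring 6 and tank means 7, and 0 fell under each of these settings. In cytokines, chemokines and their receptors il8 was the 1 of 3 probes that rose (33.3% called). In iron and haem metabolism 1 of 4 rose and 0 fell (25% called). The list of the growth hormone and insulin-like growth factor axis also holds thyroid and nutrient-sensing genes. There 2 of 7 probes rose and 2, both of DIO3, fell (57.1% called). Of 2 biliary markers 0 passed in either direction.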
